A study of Mus musculus with 2 samples.

Results

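The cytosolic ribosomal protein genes were examined on 2 one-colour arrays of mouse primary chondrocytes, 1 hybridised with RNA taken before mechanical loading and 1 with RNA taken 24 h after it. Members were all genes whose probes carry a RefSeq mRNA accession and whose symbol is Rps or Rpl followed by a number, or Rpsa, Rplp0, Rplp1 or Rplp2, without S6 kinase genes and pseudogenes, which gave 87 of the 20660 genes named on the array. Of these 87, 34 belong by symbol to the small subunit and 53 to the large subunit. A total of 77 are the single-copy core proteins of the ribosome, and the other 10 carry the same kind of symbol: 6 divergent paralogs (Rpl3l, Rpl10l, Rpl22l1, Rpl36al, Rpl39l and Rps27l), the retrogenes Rpl32l and Rps23rg1, and Rpl7l1 and Rps19bp1, which are not structural proteins of the cytosolic ribosome. A gene was called detected when its brightest probe was well above background on both arrays, which held for 85 of the 87 members.

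The cells of both arrays were primary articular chondrocytes isolated with collagenase from mice of the strain C57BL/6J at an age of 6 days, and they were grown on fibronectin-coated silicon stretch chambers. The first array holds cells before loading, and the second holds cells 24 h after uniaxial cyclic stretch of the chamber (30 min at 0.5 Hz, with 10% elongation), a load the study calls excessive. Whether cells of several mice were pooled, and whether these cultures were in serum-free medium as for most experiments of the study, is not given in the sources used here. A culture kept without load for the same 24 h was not analysed here, so the loading and the added day in culture cannot be told apart. With 1 array per time point there was no replicate error, no test was run, and the errors below are the scanner software's within-array errors of both spots combined, which came to 0.20 on the log2 scale for nearly every member.

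The ribosome is built from a small subunit, which decodes the messenger RNA, and a large subunit, which joins amino acids to the growing chain. Each core protein is needed in the same number as the ribosomal RNA, apart from the stalk proteins, and the transcripts are among the most abundant of a growing cell. They share a terminal oligopyrimidine tract, a C followed by a run of C and T at the very start of the transcript, through which the kinase complex mTORC1 and the protein LARP1 set how actively they are translated. Chondrocytes secrete large amounts of collagen and proteoglycan and so depend on a high output of ribosomes.

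The annotated starts of the core genes carried this feature more often than those of other genes. RefSeq starts on the GRCm38.p6 assembly were at hand for 57 of the 77 core genes. A gene with several annotated starts was counted when any of them carried the feature. A C followed by at least 5 C or T within 10 bases of the start was found in 31 of these 57, or 54.4%, against 21.9% of all 27025 genes with a start, counted on the strand of the gene. With the C exactly at the annotated start and at least 4 C or T after it, the count was 13 of 57, or 22.8%, against 3.01%. Core genes with a start in the table and with log2 ratios toward the low and the high end of each subunit are shown to let their start sites be compared. Each line gives 10 bases before the start and 20 bases from it, on the strand of the gene. Capitals mark a run of C and T of at least 6 bases that begins with C. For a gene with several annotated starts, the start with the longest run is shown.

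The first 3 are small-subunit genes with low log2 ratios, at chr17:24720053-24720082 on the plus strand, chr7:24884903-24884932 on the plus strand and chr14:24490668-24490697 on the plus strand. The next 3 are small-subunit genes with log2 ratios near 0, at chr3:90213629-90213658 on the minus strand, chr10:23787190-23787219 on the minus strand and chr7:3704031-3704060 on the plus strand.
Rps2: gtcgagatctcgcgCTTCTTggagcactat
Rps19: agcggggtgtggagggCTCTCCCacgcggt
Rps24: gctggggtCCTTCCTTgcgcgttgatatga
Rps27: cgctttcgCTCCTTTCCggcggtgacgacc
Rps12: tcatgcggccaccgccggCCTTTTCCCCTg
Rps9: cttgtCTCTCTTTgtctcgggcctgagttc
All 6 held a run, those with low and those with near-zero log2 ratios alike. The windows of Rps19 and Rps24 were picked by their run among 3 and 2 annotated starts.

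The large-subunit genes shown were Rpl22, Rpl36a and Rpl13, with low log2 ratios, at chr4:152324426-152324455, chrX:134585644-134585673 and chr8:123102340-123102369, all on the plus strand. They were followed by Rpl37, Rpl23 and Rpl10, with log2 ratios near 0, at chr15:5116603-5116632 on the plus strand, chr11:97782420-97782449 on the minus strand and chrX:74270806-74270835 on the plus strand.
Rpl22: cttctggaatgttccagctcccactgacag
Rpl36a: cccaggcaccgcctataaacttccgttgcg
Rpl13: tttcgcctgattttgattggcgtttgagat
Rpl37: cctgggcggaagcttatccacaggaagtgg
Rpl23: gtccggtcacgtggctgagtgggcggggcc
Rpl10: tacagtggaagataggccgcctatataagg
None of these 6 windows held a run of at least 6 bases, which says only that the letters are not in the window around this annotated start. The genes shown were picked by log2 ratio and do not stand for their subunit. Runs were not counted by subunit over the core genes.

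The stretch from 250 bases before to 50 after each annotated start was searched on both strands for the core letters of binding motifs. A match at any start of a gene was counted. The ETS family motif CCGGAAG was found in 24 of 57 core genes, or 42.1%, against 9.93% of all genes, and the YY1 motif AAGATGG in 9, or 15.8%, against 7.28%. The E-box CACGTG, which MYC can bind, was found in 6 core genes, or 10.5%, against 8.09%, and the TATA box TATAAA in 6, or 10.5%, against 15.7%. The 31 core genes with a pyrimidine run beginning within 10 bases of the start had a median log2 ratio of 24 h after over before loading of -0.19. The median log2 ratio was -0.17 in the 26 without one. It was -0.18 in the 24 genes with the ETS motif and -0.19 in the 33 without it. The differences between these medians were not tested.

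The ribosomal protein genes were among the brightest of the array. Of the 100 genes with the highest intensity, 43 were members, as were 23 of the 50 highest. The core members had intensities of at least 62540 before loading and 56087 at 24 h, both those of Rpl28, while the 75th percentile of all probes lay at 466 on both arrays. A total of 98.2% of detected genes were dimmer than Rpl28, the dimmest core member. No member spot was saturated and none was flagged as an outlier. The members held 17.4% of the summed intensity of the detected genes before loading and 16.2% at 24 h. These counts describe the signal of probes, which differ in how brightly they bind, and give no order of transcript levels. The files give no probe sequences, so that signal from the many near-identical processed pseudogenes of these genes was not separated.

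Nearly all members were slightly lower at 24 h, and none passed 2-fold. The log2 ratio was below 0 in 83 of the 85 detected members, where 52.4% of the 14231 detected genes were below 0, and above 0 in 2, where 47.6% were. The median log2 ratio of the members was -0.17, a signal 1.12 times higher before loading, with the middle members between -0.24 and -0.12 and all of them between -0.48 and 0.07. The median of all detected genes was -0.01. The small subunit had a median of -0.17 with 34 of 34 below 0, and the large subunit a median of -0.19 with 49 of 51 below 0. The medians of the subunits differed by 0.02, a difference that was not tested. In bulk RNA, fewer cells of a type and less RNA per cell cannot be told apart.

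Because the shift was small, the share of members past a lower limit stood near or below that of all genes, while no member passed one upwards. Smaller differences were counted past a fold that lowers a signal by 20% or raises it by 25%. A total of 11 of 85 members were lower by over 20%, a share of 12.9%, where 14.7% of all detected genes were, and 0 members were higher by over 25%, where 12% were. A total of 6 members were lower by over 2 within-array errors, where 9.4% of all detected genes were, and 0 were higher by as much, where 7.64% were. Past 2-fold lay 0 members, where 1.83% of all detected genes were lower and 0.668% were higher. The members were packed closely around their own median: the SD of their log2 ratios was 0.11, below the 0.20 of the within-array error that the software assigns, and against 0.38 over all detected genes.

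**Figure D1:**
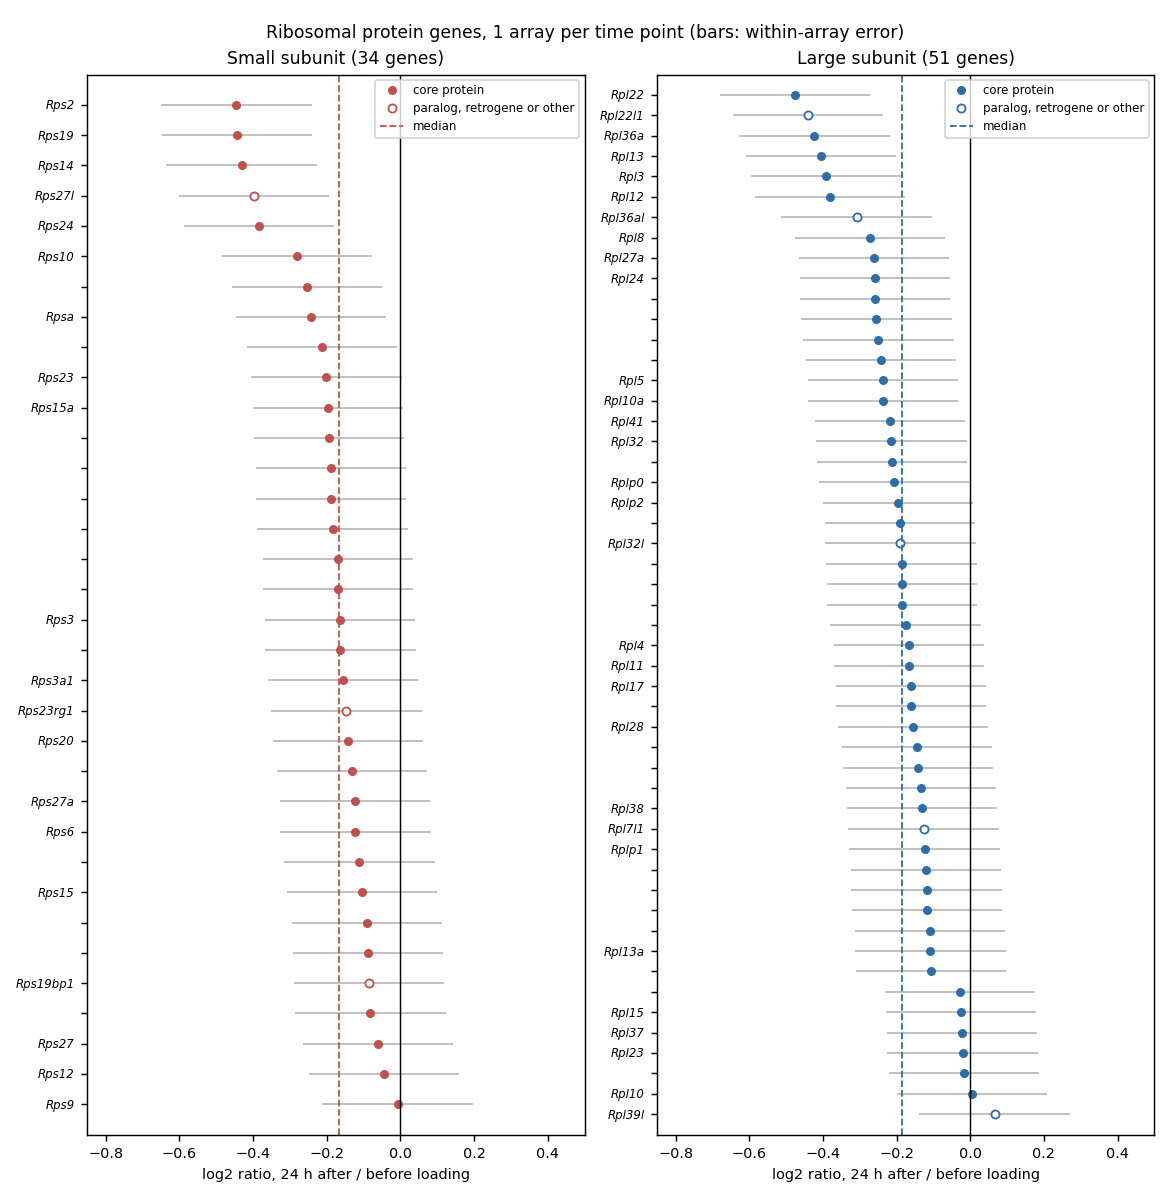
Log2 ratio of 24 h after over before loading (x axis) for each detected ribosomal protein gene, with the small subunit on the left and the large subunit on the right. Filled points are core proteins, open points are paralogs, retrogenes and the members that are not ribosomal proteins, bars are the within-array error of about 0.20, and dashed lines are the medians of -0.17 and -0.19. Members named in the text are labelled. All 34 small-subunit points lie left of 0, and 49 of the 51 large-subunit points do.

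Bright genes of other kinds also had a median below 0 at this scaling, and nearer to 0 than that of the members. The 175 other genes as bright as the core members had a median log2 ratio of -0.09, with 68.6% below 0, 12.6% lower by over 20% and 6.29% higher by over 25%. Of these 175, 8.57% were lower and 4.57% higher by over 2 within-array errors, and 2.29% were over 2-fold lower and 0 over 2-fold higher. Their SD was 0.29, and their middle values ran from -0.22 to 0.03. Their median depended on the scaling: it was -0.00041 scaled to the spike-in controls, where the members had -0.085. It was not computed for these same genes under the other scalings. The 1423 genes of the brightest 10% of detected genes, which include the core members themselves, had a median of -0.04. The spike-in control transcripts, which are by design added to each RNA in equal amounts before labelling, were also lower on the array at 24 h: the 7 levels that were well above background had log2 ratios between -0.20 and -0.06, with -0.06 at the brightest level, which read 40462 before loading and 38668 at 24 h. The part of brightness and of a difference between the arrays in the members' shift was not tested.

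**Figure D2:**
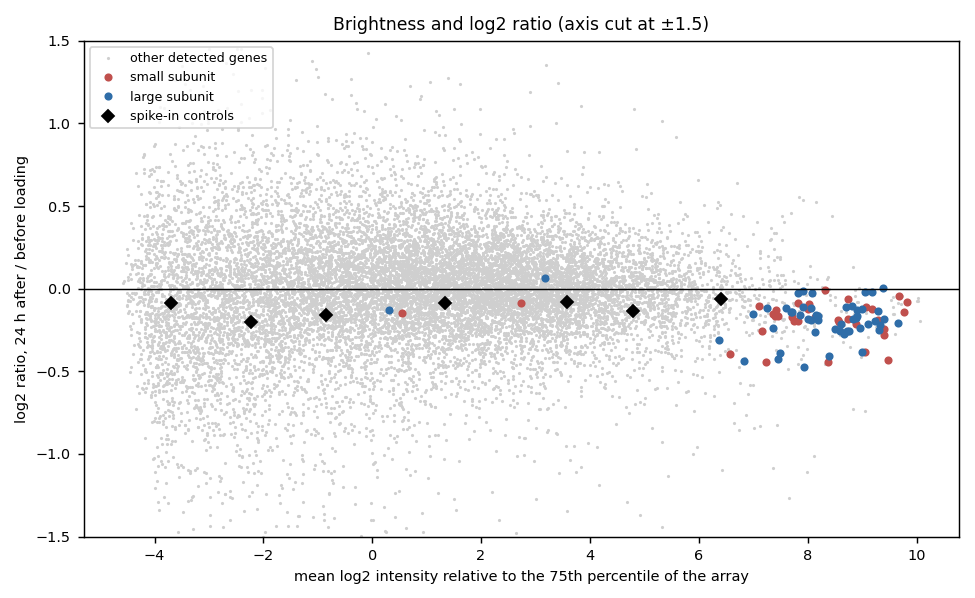
Log2 ratio of 24 h after over before loading (y axis, drawn between -1.5 and 1.5, with 108 genes outside) against mean log2 intensity relative to the 75th percentile of the array (x axis). Grey points are other detected genes, red points the small subunit, blue points the large subunit and black diamonds the 7 detected spike-in levels. The core members form a compact group at the bright end just below 0, and the spike-in levels also lie below 0.

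The size of the shift depended on how the arrays were scaled. Scaled to the spike-in controls, the median of the members was -0.085 and that of all detected genes 0.070. There 73 members were below 0 and 12 above, where 39% of all detected genes were below 0. Scaled to the median of all probes, the members had a median of -0.072 and all detected genes 0.084. There 71 members were below 0 and 14 above, where 36.9% of all detected genes were below 0. Under loess between the arrays the median of the members was -0.049. There 62 members were below 0 and 23 above, where 47.5% of all detected genes were below 0. Under quantile normalization the median of the members was -0.00753, with 44 below 0, 36 above and 5 at exactly 0. All detected genes then had a median of 0.0221, with 46.4% below 0. Quantile normalization gives the brightest probes of the arrays the same set of values, and 43 of the 100 brightest genes were members. The difference between the median of the members and that of all detected genes was -0.16 as scaled here, -0.064 under loess and -0.030 under quantile normalization. For most single members the sign of the log2 ratio is therefore given relative to the scaling used.

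**Figure D3:**
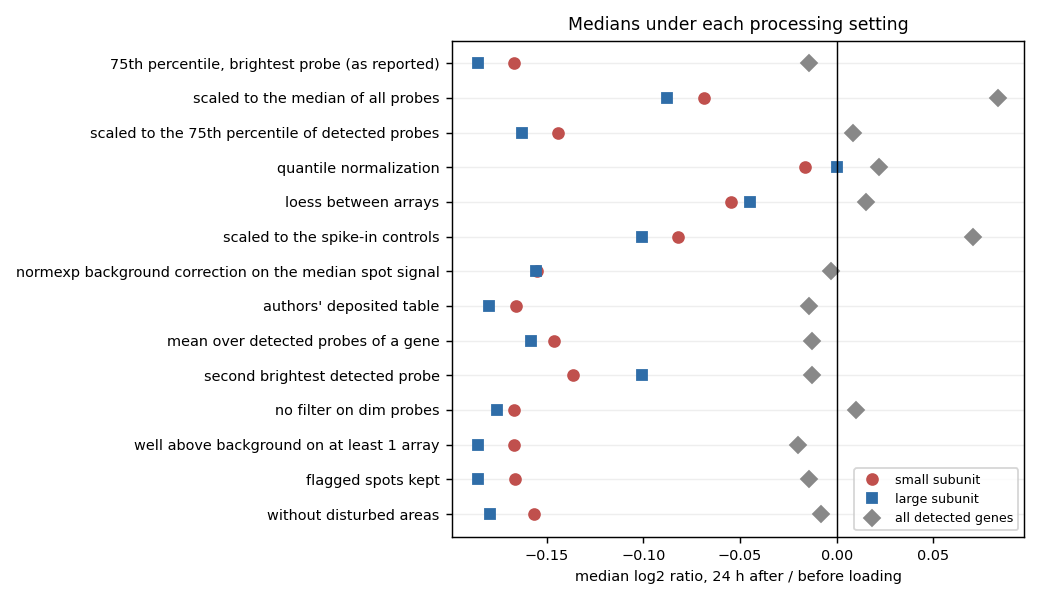
Median log2 ratio of 24 h after over before loading (x axis) under each processing setting (rows) for the small subunit (red circles), the large subunit (blue squares) and all detected genes (grey diamonds). The subunit medians lie left of all detected genes in every row, from -0.19 for the large subunit as reported to 0.00 for the large subunit under quantile normalization.

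In the small subunit, Rps2, a protein near the messenger RNA entry channel, went in intensity from 179917 to 132081, a log2 ratio of -0.45. Its second probe had a log2 ratio of -0.39. Rps19, the gene most often mutated in Diamond-Blackfan anaemia, a failure of red cell production, went from 82297 to 60474, a log2 ratio of -0.44. Its single probe lay in an area of the array with many changed neighbours, so this value rests on 1 spot position. Rps14, a protein of the decoding platform whose loss is tied to the anaemia of the 5q deletion, went from 384462 to 284967, a log2 ratio of -0.43. These 3 were the core members of the subunit that lay lower by over 2 within-array errors.

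The probes of Rps24 are annotated to different transcripts and gave different readings. The probe of NM_207635 went from 281412 to 215694, a log2 ratio of -0.38. The probe of NM_011297 went the other way, from 197333 to 240821, a log2 ratio of 0.29. The probe of NM_207634 went from 104397 to 93578, a log2 ratio of -0.16. The pre-mRNA of Rps24 is known to be spliced at its last exons into forms that differ between cell types. No probe sequences were at hand, so whether each probe reads only the transcript it is annotated to was not tested. The probes at -0.38 and 0.29 differed by 0.67, where the within-array error of each was 0.20, and with 1 array per time point the difference has no replicate check.

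At the other end of the small subunit, Rps9 read 149268 and 148404, a log2 ratio of -0.01. Rps12 went from 389058 to 376928 (-0.05), and Rps27, a zinc finger protein of the subunit, from 204709 to 196230 (-0.06). Rps20 was among the brightest members, at 425576 and 385571, a log2 ratio of -0.14, at a probe in an area with many changed neighbours. Rps6, whose protein is phosphorylated by S6 kinase below mTORC1, had a log2 ratio of -0.12. On their brightest probes these members all lay within 1 within-array error of 0.

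In the large subunit, Rpl22, an RNA-binding protein whose loss in mice is tolerated, had the lowest log2 ratio of all members: its brightest probe went from 134590 to 96760, a log2 ratio of -0.48. Its second probe was far dimmer and went from 6752 to 9571, a log2 ratio of 0.50. The range of 0.98 between these probes was the largest of any member, and the mean over both was 0.01. Rpl22 therefore has no settled direction on these arrays.

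Rpl36a went from 94939 to 70764, a log2 ratio of -0.42, while its other probes had -0.10 and -0.14. The probe at -0.10 lay in an area with many changed neighbours. Rpl13 went from 179713 to 135598, a log2 ratio of -0.41, while its other probes had -0.16 and -0.18. Rpl3, a protein near the peptidyl transferase centre, went from 96105 to 73260, a log2 ratio of -0.39. Rpl12, which forms the base of the stalk, went from 273606 to 209988, a log2 ratio of -0.38. For Rpl36a and Rpl13 the brightest probe gave the lowest value, and the other probes lay within 1 within-array error of 0.

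The large-subunit members closest to 0 had nearly equal signals on both arrays. Rpl10, which is added last as the subunit matures, had 311589 and 312406, a log2 ratio of 0.00, and its other probes had -0.03 and -0.09. Rpl23 had 250919 and 247204, Rpl37 had 274495 and 270023, and each had a log2 ratio of -0.02. Rpl23, a protein known to bind MDM2, was also measured by a probe printed on 10 spots. Their log2 ratios ran from 0.06 to 0.24 with a mean of 0.14 and an SD of 0.06 between spots. This probe lay at least in part in an area with many changed neighbours. The second probe of Rpl23, at -0.06, lay in such an area too. Rpl15 had 126847 and 124668, a log2 ratio of -0.02, with a second probe at 0.39.

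Between these ends, the values followed each other closely. Rps10, a protein at the messenger RNA entry side and a Diamond-Blackfan gene, read 348866 and 286861, a log2 ratio of -0.28. Rpsa, which is also known as a laminin receptor, read 344780 and 291347 (-0.24). Rps3, which shapes the entry channel and also acts in DNA repair, read 86642 and 77268 (-0.16), and Rps3a1 read 81023 and 72741 (-0.15). Rps27a, made as a fusion with ubiquitin, read 281758 and 258621 (-0.12), and Rps15 read 66744 and 62061 (-0.10). On their brightest probes all of these were lower at 24 h, by less than 2 within-array errors. The second probe of Rps3 was far dimmer and went the other way, from 2534 to 3196 (0.34). The brightest probe of Rps27a lay in an area with many changed neighbours.

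In the large subunit the same held. Rpl8, a protein close to the peptidyl transferase centre, read 207600 and 171869, a log2 ratio of -0.27, and Rpl24, a partner of the inter-subunit bridges, read 197703 and 165208 (-0.26). Rpl10a read 251767 and 213534 (-0.24), and Rpl41, the smallest protein of the ribosome, read 324371 and 278719 (-0.22). Rpl4 and Rpl17, which both line the exit tunnel, read 144530 and 128664 (-0.17) and 114408 and 102209 (-0.16). Rpl38, known in mice for axial skeletal patterning, read 234585 and 214121 (-0.13), and Rpl13a, known for silencing transcripts of inflammation, read 201904 and 187235 (-0.11). On its brightest probe each of these large-subunit members was lower at 24 h by less than 2 within-array errors. The probe of Rpl4 lay in an area with many changed neighbours.

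The acidic stalk recruits elongation factors to the ribosome. Rplp0 went from 406019 to 351549 (-0.21), Rplp1 from 247693 to 227146 (-0.12) and Rplp2 from 302390 to 263698 (-0.20). On their brightest probes all 3 stalk genes were lower by less than 20%. The other probes of Rplp0 had log2 ratios of -0.58 and -0.12, and its brightest probe lay in an area with many changed neighbours. The proteins that carry the ribosomal RNA of the central protuberance and bind MDM2 when assembly fails, Rpl5 and Rpl11, went from 82847 to 70237 (-0.24) and from 238111 to 212039 (-0.17). Of the 9 members tied to Diamond-Blackfan anaemia by a list written for this work, 9 were below 0, with a median of -0.19 and a range of -0.44 to -0.09, close to the median of all members.

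The paralogs had a wider spread than the core. Rpl22l1, the paralog of Rpl22, went from 61924 to 45625, a log2 ratio of -0.44. Rps27l, a p53 target, went from 50895 to 38615, a log2 ratio of -0.40, at a probe in an area with many changed neighbours. Rpl36al went from 43093 to 34777, a log2 ratio of -0.31. Rpl39l, known from the testis, read 4136 and 4327 and had the highest log2 ratio of the detected members, 0.07. Rpl3l, known from heart and skeletal muscle, and Rpl10l, known from the testis, were not well above background, with intensities of 4.69 and 4.84 and of 11.5 and 12.4. The 8 detected members outside the core had a median of -0.17 and an SD of 0.17, against -0.17 and 0.11 in the 77 core members.

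The retrogenes Rpl32l and Rps23rg1 are intronless copies of Rpl32 and Rps23. Rpl32l read 146343 and 128262, a log2 ratio of -0.19, and Rpl32 itself had -0.21. Rps23rg1 was dim, at 713 and 644, a log2 ratio of -0.15. Whether the bright signal of Rpl32l came from its own transcript or from Rpl32 was not tested. Rpl7l1, which acts in assembly of the large subunit, had 605 and 553 (-0.13), and Rps19bp1, which binds RPS19 and SIRT1, had 3178 and 2996 (-0.08). The only probe of Rpl7l1 lay in an area with many changed neighbours. Fau, whose symbol lies outside the rule, codes for a ribosomal protein made as a fusion with a ubiquitin-like part, and it went from 257834 to 251976 (-0.03).

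Of the 87 members, 53 were represented by more than 1 probe. All 87 together had 177 probes, of which 173 were well above background. A total of 159 of these 173 probes had a log2 ratio below 0, with a median of -0.16, and 0 passed 2-fold. Leaving out the brightest probe of each gene left 88 probes with a median of -0.13, of which 76 were below 0. Of these, the 54 as bright as the core members had a median of -0.15 with 53 below 0, and the 34 dimmer ones had a median of -0.08 with 23 below 0. The difference between the bright and the dim probes was not tested.

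In 51 members more than 1 probe was detected, and the gap between the highest and the lowest probe of a gene had a median of 0.20, about the size of the within-array error. The detected probes were all below 0 in 38 of the 51 and lay on both sides of 0 in 13. After Rpl22, the widest ranges were those of Rps27a (0.77), Rps24 (0.67), Rpl17 (0.61), Rps15a (0.58), Rpl27a (0.50) and Rps3 (0.50). The 7 probes of Rpl17 ran from -0.69 to -0.08, and 1 of them, at -0.69, stood apart from the rest. In Rps27a the wide range came from a dim probe, which read 72.9 and 40.6. Probes of one gene share the RNA of the same 2 arrays and are not replicates of the condition.

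**Figure D4:**
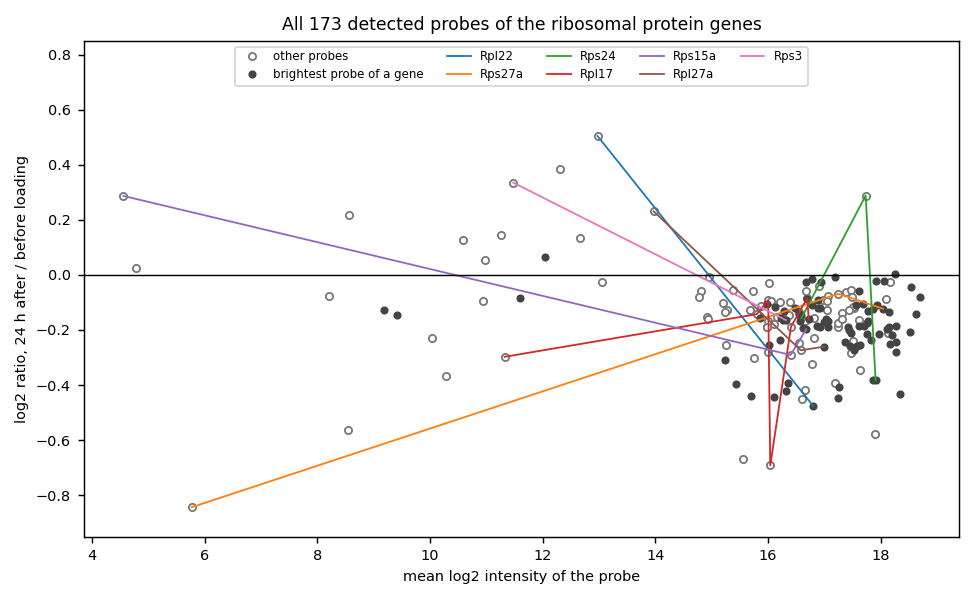
Log2 ratio of 24 h after over before loading (y axis) against mean log2 intensity (x axis) for all 173 detected probes of ribosomal protein genes. Filled points are the brightest probe of each gene, open points the other probes, and coloured lines join the probes of the 7 genes with the widest ranges. Bright probes lie close together below 0, and dim probes spread to both sides.

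Genes that build or use the ribosome were set beside the members. The 70 ribosome biogenesis genes had a median log2 ratio of -0.11, with 57 below 0, 6 lower by over 20% and 0 higher by over 25%. Of these 70, 81.4% were below 0 and 8.57% lower by over 20%. Of all detected genes, 52.4% and 14.7% were, and 12% were higher by over 25%. The lowest of the 70 was Wdr43, a factor of the small-subunit processome, which went from 3080 to 1923 (-0.68). The next was Ddx21, a nucleolar helicase, from 3537 to 2352 (-0.59), but its second probe, outside the area with many changed neighbours in which the first lay, had 0.03. The highest were Mdn1, an ATPase of large-subunit maturation, at 0.14, and Polr1e, a subunit of RNA polymerase I, at 0.18. The 6 chaperones of ribosomal proteins had a median of -0.14, from Heatr3 (-0.28) and Pdcd2 (-0.22) to Ltv1 (0.09) and Tsr2, which escorts RPS26, at 0.33. The biogenesis genes and the chaperones had medians above that of the members at the scaling used here and below it under loess (-0.096 and -0.125) and quantile normalization (-0.086 and -0.111).

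Translation factors were mixed. The 38 detected initiation factors had a median of -0.13, with 28 below 0, 6 lower by over 20% and 0 higher by over 25%. Of these 38, 73.7% were below 0 and 15.8% lower by over 20%, where 52.4% and 14.7% of all detected genes were. Eif4a1, the helicase of the cap complex, went from 46092 to 32422 (-0.51) and Eif3j1 had -0.43, while Eif3a had 0.14 and the scaffold Eif4g1 had 0.16. The 9 detected elongation factors had a median of -0.01, with 5, or 55.6%, below 0, although Eef1a1 and Eef2 are also terminal oligopyrimidine transcripts. Their values were -0.01 and 0.03, and those of Eef1b2 and Eef1g were -0.26 and 0.08. Eef2k, the kinase that inhibits Eef2, went from 627 to 425 (-0.56), and Eif5a2 had 0.10. The 16 transcripts outside the members that are known for a terminal oligopyrimidine tract had a median of -0.11 with 13, or 81.25%, below 0. They ran from Naca, which went from 58816 to 42304 (-0.47), and Npm1 (-0.31) to Eif3f (0.05) and Eef1g (0.08). These 16 are not a separate set. They include Eef1a1, Eef1b2, Eef1g and Eef2, initiation factors such as Eif3f, and Npm1 of the biogenesis list.

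The mitochondrial ribosome is a separate machine with nuclear-coded proteins of its own. Its 77 detected genes had a median log2 ratio of -0.14, with 59 below 0, 10 lower by over 20% and 0 higher by over 25%. Of these 77, 76.6% were below 0 and 13% lower by over 20%, where 52.4% and 14.7% of all detected genes were. Mrpl1 (-0.77) and Mrpl27 (-0.66) were the lowest, and Mrps23 (0.17) and Mrpl34 (0.29) the highest. Its SD of 0.19 was larger than the 0.11 of the cytosolic set. Whether the medians of -0.14 and -0.17 of the mitochondrial and the cytosolic set differ was not tested. Their order depended on the scaling, with -0.098 for the mitochondrial and -0.049 for the cytosolic set under loess, and -0.107 and -0.00753 under quantile normalization.

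The regulators of ribosome production did not stand together. The 17 detected genes of mTORC1 and other regulators of ribosome production, among them Myc and Max, had a median of -0.05. Of these, 11 were below 0, 3 were lower by over 20% and 1 was higher by over 25%. Shares of 64.7% below 0 and 17.6% lower by over 20% stood beside 52.4% and 14.7% of all detected genes. The lowest of the 17 were Akt1s1 (-0.42) and Ddit4 (-0.39), which both restrain mTORC1. The highest were Tsc2 (0.30), also a restraint on mTORC1, and Max (0.37), the partner of MYC. Tsc2 was dim, at 72.2 before loading and 88.6 at 24 h, with a within-array error of 0.24. Myc had -0.34. The 8 detected genes of p53 and its targets, which respond when ribosome assembly fails, had a median of -0.06, from Bbc3 (-0.25) and Mdm2 (-0.16) to Zmat3 (0.19) and Sesn1 (0.35). None of the genes of these lists passed 2-fold.

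**Figure D5:**
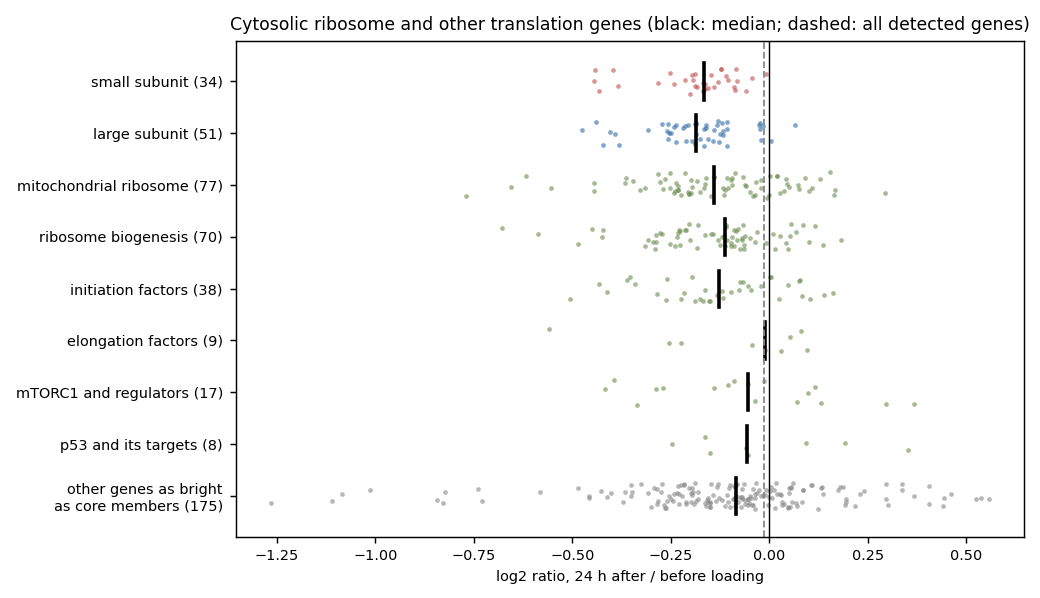
Log2 ratio of 24 h after over before loading (x axis) of each detected gene in the cytosolic ribosome, in other translation lists and in 175 other genes as bright as the core members, with the number of genes in brackets. Black bars are medians, and the dashed line is the median of all detected genes, -0.01. The subunit medians of -0.17 and -0.19 are the lowest of the rows at this scaling, though not under loess or quantile normalization, and the points of the subunits lie closer together than those of the other rows.

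The labelled cell type was borne out by its markers. All 14 chondrocyte markers, among them Col2a1 and Acan, were detected above the 75th percentile of the array, with a median log2 ratio of 0.10 and 4 of 14 lower at 24 h. The summed intensity of macrophage markers was 4429 before loading and 4290 at 24 h, with 6 of 6 detected, 1 of them lower (Csf1r) and a median log2 ratio of 0.21. That of endothelial markers was 12898 and 12524, with 2 of 5 detected (not Cdh5, Emcn and Tek), 1 of them lower and a median of 0.09. Kdr held most of this sum, at 12774 and 12375, while Pecam1 read 111 and 130. The summed intensity of muscle markers was 1288 and 1204, with 3 of 5 detected (not Myod1 and Ckm), 2 of them lower and a median of -0.13. Erythroid markers summed to 78.4 and 84.7, with 1 of 4 detected, Hba-a1 at -0.12. Osteoblast markers summed to 342 and 117, with 2 of 3 detected, both lower (Ibsp at -2.06 and Sp7 at -0.64) and a median of -1.35. Tenocyte markers summed to 2668 and 2094, with 3 of 3 detected, 1 of them lower (Scx) and a median of 0.21. Adipocyte markers summed to 877 and 1838, with 3 of 4 detected, all 3 higher and a median of 1.01. The part of other cell types in the members' shift was not tested.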

How the data were processed

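RNA of 2 samples, 1 per time point, was hybridised to one-colour Agilent arrays, which shared a slide. The authors deposited the processed intensity of each spot from Feature Extraction 10.10.1.1, with background subtracted and the arrays not normalized to each other, and a table of the same intensities rounded. The genome build was not given in the sources used here.

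Spots flagged on either array were left out (141 before loading, 138 at 24 h), repeat spots of a probe were averaged as log2 intensities, and the 75th percentile of the 55678 probes was subtracted from each array. Accessions of 27235 probes were named through a RefSeq table, and the brightest probe stood for its gene. The members and gene lists were chosen with earlier results of these data known, and the list of retrogenes was added after the values were seen. No test was run. The number of arrays limits the precision. Genes named are, per subunit, the 5 highest and 5 lowest log2 ratios, the 3 brightest and 3 dimmest members, the paralogs, stalk and central protuberance genes and members that are no ribosomal protein, and the 2 highest and 2 lowest of each other list; further members, Eef1a1, Eef2, Myc and the genes with wide probe ranges were added after their values were seen. Some genes that this rule would name are not reported here. Areas in which a spot has at least 3 neighbours within 100 µm changed more than 2-fold one way are described as having many changed neighbours. Python 3.11.15, numpy 2.4.6, pandas 2.3.3, R 4.3.3 and limma 3.58.1 were used, and the scripts were tested on simulated data. The 14 alternatives tried were the core members alone, other scalings, normexp, the authors' table, other probe rules, other filters on dim and flagged spots and leaving out disturbed areas.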

Additional observations from a re-analysis of the deposited data

How the results depend on the processing

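The members' median kept its sign under all alternatives, and the median of the large subunit was 0 under quantile normalization. Scaled to the median of all probes, the medians were -0.072 for all members, -0.069 for the small and -0.087 for the large subunit, and 0.084 for all detected genes. The lists then had -0.0290 (initiation), 0.087 (elongation, 3 below 0), -0.00881 (other oligopyrimidine transcripts, 8 below 0), -0.014 (biogenesis), -0.044 (chaperones), 0.0440 (mTORC1, 7 below 0), 0.041 (p53, 3 below 0) and -0.042 (mitochondrial ribosome). A total of 6 members were lower by over 20% and 0 lay lower by over 2 errors, and the same counts, 6 and 0, came from scaling to the spike-in controls, with 3 elongation and 3 p53 genes below 0 and medians above 0 for elongation (0.074), mTORC1 (0.031) and p53 (0.028). Under quantile normalization the medians were -0.00753 for all members, -0.0163 for the small subunit and 0 for the large, -0.030 relative to all detected genes, with 44 members below 0, 0 lower by over 20%, 0 lower by over 2 errors, and elongation factors at 0.093 with 3 below 0. Under loess they were -0.049, -0.054 and -0.045, and -0.064 relative to all detected genes. There 3 members were lower by over 20% and 0 by over 2 errors, and elongation factors had 0.096 with 3 below 0. Of all detected genes, 46.4% were below 0 under quantile normalization. The shares of all detected genes lower by over 20% or by over 2 errors were not computed at these other scalings. The second brightest probe turned Rpl22 (0.50), Rps24 (0.29), Ddx21 (0.033) and, over the genes with a second probe, the medians of biogenesis (0.033), mTORC1 (0.011) and p53 (0.019), the mean over probes turned Rpl22 (0.0143), and leaving out the disturbed areas, in which 9 members have their brightest probe, turned Ddx21 (0.0395). The cause was not tested. Scaling to the spike-in controls gave a median of -0.085 for the members, and the other alternatives gave -0.18 to -0.13. Values of single members lie within about 2 within-array errors of 0, so their order has no replicate check. No paired analysis was possible because there was 1 array per time point.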
